A study of Mus musculus with 17 samples.

Results

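The endothelium of blood and lymph vessels was followed in control and GWI colons through genes that mark it. The group holds 10 genes, chosen by symbol: Pecam1, Cdh5, Kdr, Flt1, Tek, Tie1, Vwf, Plvap, Prox1 and Flt4. All 10 were found among the 23719 entries of the count table, and all 10 were among the 14146 genes that passed the filter on low counts and were tested. Male C57BL/6 mice aged 32 to 34 weeks were used throughout, with no genetic change named. The 9 control mice drank water. The 8 GWI mice, a model of Gulf War illness, drank water with pyridostigmine bromide (PB), which reversibly blocks acetylcholinesterase, at 2 mg/kg for 7 days, followed by 21 days of recovery, to day 30. The RNA came from pieces of colon, and the layers in them are not named. The samples are numbered as tissue replicates and each is called a mouse here, but no source used here names the animals, so p-values measure the spread between these samples.

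Endothelial cells line blood and lymph vessels and are held together by junction proteins such as VE-cadherin. Vascular endothelial growth factors (VEGFs) act on them through a small family of receptor tyrosine kinases, and angiopoietins act through the Tie receptors. Lymphatic endothelium is set apart by the transcription factor Prox1 and by a VEGF receptor for VEGF-C and VEGF-D. In the colon, capillaries run close under the epithelium, while larger vessels and lymphatics lie mostly in the submucosa, beside the muscle layers.

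Control libraries held 16744096 to 20741212 counts, and GWI libraries 16293537 to 18389686. No member had fewer than 63 counts in any mouse. Before any comparison, 2 control mice stood apart. Control replicate 6 had the highest level of Pecam1, Cdh5, Kdr, Tek, Tie1, Prox1 and Flt4 of all 17 mice, and the 10 members summed to 352 CPM in it (CPM, the count relative to the library's total, scaled by the trimmed mean of M-values). Control replicate 9 had the lowest sum, 72.8 CPM, and mitochondrial transcripts took 19.5% of its counts, against 6.11% to 14.2% in the other control mice and 6.26% to 9.76% in GWI mice. A fit without both of these mice was added after seeing the data, and not every gene named below was read from it. Markers of colon epithelium were high in both groups. Car1, a carbonic anhydrase of colonocytes, had 12478 ± 7385 CPM (SD, n = 9) in control and 11963 ± 5050 CPM (SD, n = 8) in GWI colons.

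Of the 10 endothelial genes, 4 were lower in GWI colons and 0 were higher in the quasi-likelihood test of edgeR, at a Benjamini-Hochberg adjusted p under 0.05 across the whole table. Among all tested genes, 13.5% were called lower and 13.4% higher, 26.8% in either direction. With upper-quartile factors as the scaling, 2992 genes were called lower and 1214 higher, against 1903 and 1889, and 4 members were again lower. The count of 4 was 1 without Control replicate 6 or GWI replicate 3, 4 or 6, 2 without Control replicate 3 or 4 or GWI replicate 1 or 7, and 5 without Control replicates 6 and 9 together. It was 0 when a score of 10 smooth muscle genes, 7 of which were also lower (median log2 fold change -0.91), was added to the model. At an unadjusted p under 0.05, 5 members were lower and 0 higher, beside 22.1% and 19.3% of all tested genes. DESeq2 called 4 members lower and limma-voom 8, both with 0 higher. Of 19717 genes tested, DESeq2 called 2432 lower and 2197 higher, and of 14146 limma-voom called 4180 and 3911. Every call by limma-voom below stands beside these totals. Flt4 alone also passed an unadjusted p of 0.05 with an absolute log2 fold change over 1, as 1.77% of all tested genes did with lower values. The 4 genes were Flt4 and Prox1, which mark lymphatic endothelium, and Kdr and Tie1, receptors of blood and lymphatic endothelium. Every member had a negative log2 fold change (GWI against control), and the median was -0.49, while 55.2% of all tested genes had a negative value, with a median of -0.056. In 0 of the 10 genes did the groups separate without overlap, as 0.523% of all tested genes did with lower values in GWI. In bulk tissue, fewer endothelial cells and less RNA per cell cannot be told apart.

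**Figure D1:**
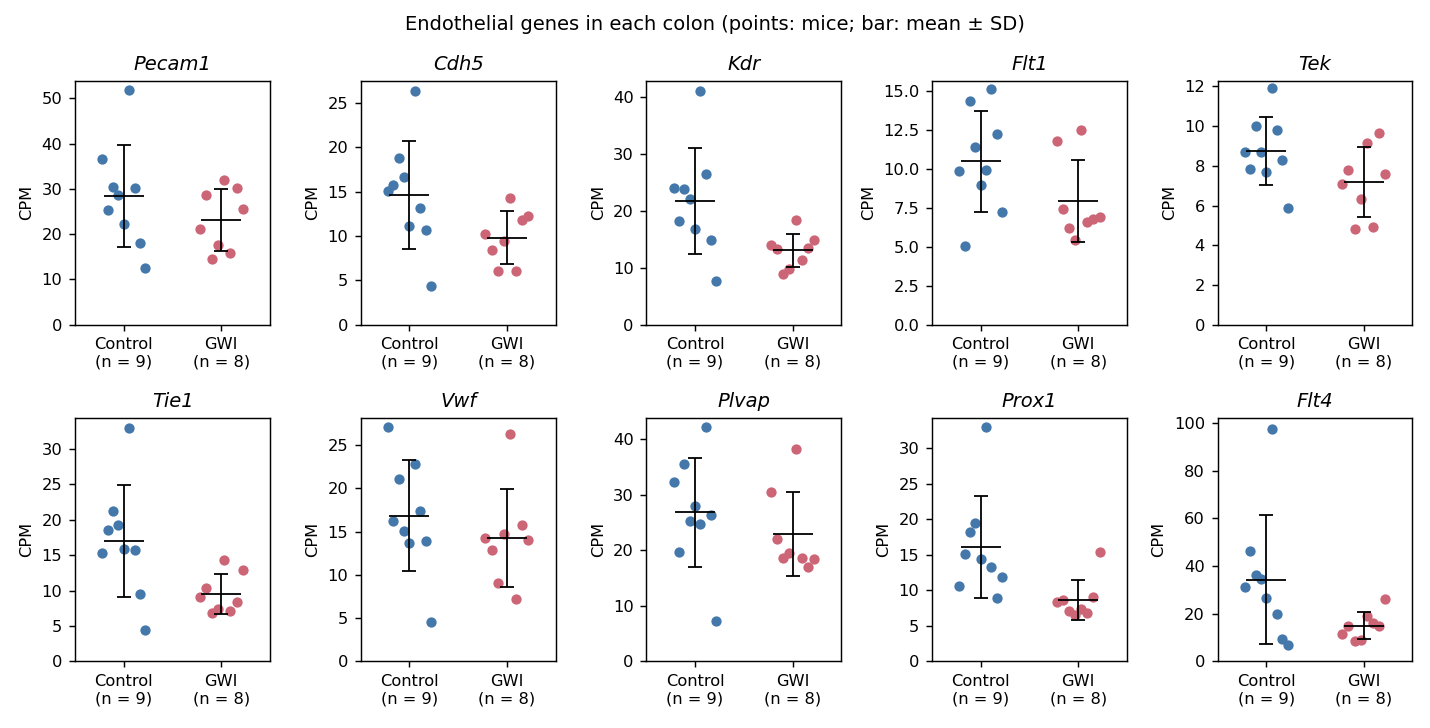
Levels of the 10 endothelial genes in CPM (vertical axes, from 0) in 9 control and 8 GWI colons, with 1 point per mouse and the mean ± SD as a bar. The single high control point of Flt4, at 97.7 CPM, is Control replicate 6, and the groups overlapped for every gene.

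Levels of different genes were compared as CPM per kilobase of exon. In control colons Plvap was the most abundant, at 13.5 ± 4.97 CPM per kilobase (SD, n = 9). It forms the diaphragms of fenestrated capillaries, the kind found in gut mucosa. Pecam1 followed at 4.57 ± 1.82, Flt4 at 4.17 ± 3.28, Cdh5 at 3.49 ± 1.45 and Tie1 at 3.45 ± 1.61. The means of these neighbours lay within their spread between mice, and their order within each mouse was not read. Kdr (2.41 ± 1.03), Prox1 (1.92 ± 0.854) and Tek (1.86 ± 0.362) came next, also within their spread. Vwf at 1.05 ± 0.399 and Flt1 at 0.775 ± 0.239 were lowest and lay within their spread of each other. In GWI colons Plvap was again first, at 11.5 ± 3.78 CPM per kilobase (SD, n = 8), Flt1 was last at 0.588 ± 0.196, and Flt4 stood at 1.83 ± 0.708, behind Cdh5 (2.34 ± 0.702) and Tie1 (1.94 ± 0.570).

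The VEGF receptors were examined first. Kdr (ENSMUSG00000062960.10, GRCm38 chromosome 5, 75932827 to 75978458) encodes VEGFR2, the receptor through which VEGF-A drives growth and permeability of blood vessels. Its level in control colons was 7.74 CPM at the lowest, 22.2 at the median and 41.2 at the highest, and in GWI colons 8.96, 13.5 and 18.4 CPM. All 8 GWI mice lay below the control median and 5 of the 9 control mice lay above every GWI mouse, while Control replicate 9 lay below all of them. Kdr fell by 0.74 on the log2 scale (SE 0.24, edgeR adjusted p = 0.0283), with group means of 21.7 ± 9.29 CPM (SD, n = 9) in control and 13.1 ± 2.98 CPM (SD, n = 8) in GWI colons. Leaving out 1 mouse at a time, the edgeR adjusted p stayed under 0.05 in 13 of 17 fits. It was 0.0556 without Control replicate 6, and 0.0588, 0.0576 and 0.054 without GWI replicate 3, 4 or 6.

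Flt4 (ENSMUSG00000020357.3, chromosome 11, 49609263 to 49652739) encodes VEGFR3, the receptor for VEGF-C and VEGF-D, which in the adult is found mainly on lymphatic vessels. The lowest, median and highest levels were 6.97, 31.1 and 97.7 CPM in control colons and 8.53, 14.9 and 26.4 CPM in GWI colons. Of the control mice, 6 lay above every GWI mouse, and Control replicate 9 lay below every GWI mouse. Flt4 fell by 1.19 on the log2 scale, the largest value of the 10 genes (SE 0.40, edgeR adjusted p = 0.0367). The means were 34.3 ± 27.0 CPM (SD, n = 9) and 15.1 ± 5.83 CPM (SD, n = 8). Without Control replicate 6 the log2 fold change was -0.81 (edgeR adjusted p = 0.0872), and without both Control replicate 6 and Control replicate 9 it was -0.95 (edgeR adjusted p = 0.0256). Leaving out 1 mouse at a time, the call held in 7 of 17 fits, and without a filter on low counts the edgeR adjusted p was 0.0539. Without Control replicate 2, 3 or 4 the edgeR adjusted p was 0.0567, 0.0532 and 0.0514, and without GWI replicate 1, 2, 3, 4, 6 or 7 it was 0.062, 0.0572, 0.0713, 0.0705, 0.0574 and 0.0623.

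Flt1 (ENSMUSG00000029648.13, chromosome 5, 147561604 to 147726011) encodes VEGFR1, which binds VEGF-A tightly and signals weakly. The lowest, median and highest levels were 5.06, 9.92 and 15.1 CPM in control colons and 5.45, 6.83 and 12.5 CPM in GWI colons. Its log2 fold change was -0.40 (SE 0.22, edgeR adjusted p = 0.168). Limma-voom called Flt1 lower, at -0.53 (limma-voom adjusted p = 0.0216). GWI replicates 1 and 5 lay above the control median, and the other 6 GWI mice lay below it.

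Among the Tie receptors, Tie1 (ENSMUSG00000033191.14, chromosome 4, 118471191 to 118490061) encodes a receptor that modulates angiopoietin signalling without a well-defined ligand of its own. It ranged from 4.39 through a median of 15.8 to 33.0 CPM in control colons, and from 6.76 through 8.70 to 14.3 CPM in GWI colons. Of the 9 control mice, 7 lay above every GWI mouse, the most of any member, and the exceptions were Control replicate 8 and Control replicate 9. Tie1 fell by 0.83 on the log2 scale (SE 0.28, edgeR adjusted p = 0.0341). Leaving out 1 mouse at a time, the call held in 9 of 17 fits. Without Control replicate 3, 4 or 6 the edgeR adjusted p was 0.0575, 0.0531 and 0.0707, and without GWI replicate 1, 3, 4, 6 or 7 it was 0.0535, 0.0674, 0.0657, 0.0665 and 0.0631.

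Tek (ENSMUSG00000006386.15, chromosome 4, 94739289 to 94874976) encodes TIE2, the receptor of the angiopoietins. In control colons it varied least of the 10 relative to its mean. It ranged from 5.85 through 8.69 to 11.9 CPM in control colons and from 4.83 through 7.34 to 9.64 CPM in GWI colons. Its log2 fold change was -0.29 (SE 0.16, edgeR adjusted p = 0.176), and the ranges of the groups overlapped over most of their length. Limma-voom called Tek lower, at -0.40 (limma-voom adjusted p = 0.0235).

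The junction genes came next. Cdh5 (ENSMUSG00000031871.9, chromosome 8, 104101625 to 104144511) encodes VE-cadherin, an adhesion protein of endothelial junctions that is largely restricted to endothelium. It ranged from 4.39 through 15.1 to 26.4 CPM in control colons, and from 6.01 through 9.86 to 14.3 CPM in GWI colons. All 8 GWI mice lay below the control median, and 5 control mice lay above every GWI mouse. Limma-voom called Cdh5 lower, at -0.76 (limma-voom adjusted p = 0.00296). In edgeR's fit the log2 fold change of Cdh5 was -0.58 (SE 0.26, edgeR adjusted p = 0.1). Without Control replicate 9 it was -0.69 (edgeR adjusted p = 0.0171), and without both Control replicate 6 and Control replicate 9 it was -0.55 (edgeR adjusted p = 0.0372).

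Pecam1 (ENSMUSG00000020717.19, chromosome 11, 106654217 to 106750628) encodes CD31, an adhesion molecule of endothelial junctions that platelets and leukocytes also carry. It ranged from 12.5 through 28.6 to 51.9 CPM in control colons and from 14.5 through 23.4 to 32.0 CPM in GWI colons. Its log2 fold change was -0.29 (SE 0.23, edgeR adjusted p = 0.347), and -0.14 without Control replicate 6 (0.642). The GWI range lay inside the control range.

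Vwf and Plvap mark the blood side of the endothelium. Vwf (ENSMUSG00000001930.17, chromosome 6, 125546774 to 125686679), the clotting glycoprotein that endothelial cells and platelets store, ranged from 4.60 through 16.2 to 27.0 CPM in control and from 7.17 through 14.2 to 26.2 CPM in GWI colons. Plvap (ENSMUSG00000034845.6, chromosome 8, 71497765 to 71511752) ranged from 7.25 through 26.3 to 42.1 CPM and from 17 through 19.1 to 38.2 CPM. The GWI values of both genes lay within the range of the control values. The log2 fold changes were -0.24 for Vwf (standard error 0.27, edgeR adjusted p = 0.515) and -0.23 for Plvap (standard error 0.25, edgeR adjusted p = 0.501). With 1 mouse left out they lay between -0.43 (without GWI replicate 5) and -0.13 (without Control replicate 1) for Vwf, and between -0.37 (without GWI replicate 5) and -0.12 (without Control replicate 7) for Plvap. Without both Control replicate 6 and Control replicate 9 Plvap had -0.38. Limma-voom called Plvap lower, at -0.42 (limma-voom adjusted p = 0.0194), and gave Vwf -0.40 (limma-voom adjusted p = 0.0767).

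Prox1 (ENSMUSG00000010175.13, chromosome 1, 190118035 to 190170714), the transcription factor that sets lymphatic identity, is also made in enteroendocrine cells of the gut epithelium. It ranged from 8.93 through 14.5 to 33.0 CPM in control colons, and from 6.49 through 7.94 to 15.3 CPM in GWI colons. Of the 8 GWI mice, 7 lay below the control median, and GWI replicate 8 lay above it. Prox1 fell by 0.90 on the log2 scale (SE 0.24, edgeR adjusted p = 0.0116), from 16.1 ± 7.16 CPM (SD, n = 9) to 8.66 ± 2.86 CPM (SD, n = 8). It was the only member called lower whichever 1 of the 17 mice was left out, with edgeR adjusted p-values from 0.00385 to 0.0263. Exons of Prox1 overlap those of the antisense gene Prox1os over 133 of 8390 bases, so reads of the 2 genes cannot be told apart there if strand was not used. Of 8 enteroendocrine genes, edgeR called 1 lower and 0 higher, beside 13.5% and 13.4% of all tested genes. Limma-voom called 2 lower and 1 higher, and the median log2 fold change of the 8 was 0.082. Chgb, the most abundant of them, encodes secretogranin 1, and the gene that fell was Scg5, also made in neurons (log2 fold change -0.66, edgeR adjusted p = 0.0274). Without Control replicate 4 or GWI replicate 1, 6 or 7 the edgeR adjusted p of Scg5 was 0.0514, 0.0504, 0.0551 and 0.058. The summed level of the 8 genes was 300 to 867 CPM with a median of 639 in control colons and 393 to 1014 CPM with a median of 750 in GWI colons, and its part in the Prox1 result was not tested.

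The proportion of each member to Cdh5 within a mouse was described as the log2 ratio of counts, without a test. Flt4 and Prox1 had lower mean ratios in GWI colons. The ratio of Flt4 to Cdh5 was 0.98 ± 0.60 (SD, n = 9) in control and 0.58 ± 0.50 (SD, n = 8) in GWI colons, and that of Prox1 was 0.17 ± 0.55 and -0.18 ± 0.44. Tie1 and Kdr had mean ratios lower by 0.21 and 0.14, while Plvap, Vwf, Pecam1, Tek and Flt1 had mean ratios higher by 0.35, 0.30, 0.26, 0.20 and 0.11. None of these 9 differences exceeded the sum of the SDs of the groups. That bar is wide at these group sizes, so it cannot show that the proportions were kept.

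Deviations of log2 CPM from the group means were correlated between genes over 17 mice, as a description in which all values of a mouse share its library. The 45 pairs had a median Pearson r of 0.72 and a median Spearman rho of 0.67. Over the 15 mice other than Control replicates 6 and 9 the median r was 0.58 and the lowest -0.18. The 10 pairs among Pecam1, Cdh5, Kdr, Tek and Tie1 had r from 0.73 to 0.93, and from 0.56 to 0.88 over those 15 mice. The 9 pairs with Flt1 had a median r of 0.36 and a median rho of 0.46. Over 17 mice the lowest r of all pairs was 0.021, between Flt1 and Flt4, the receptors of VEGF-A and of the lymphatic VEGFs, and the lowest rho was -0.039, between Plvap and Prox1. Outside the lists, the 5 genes whose deviations were most like the mean deviation of the members were Fgd5 (r = 0.97), Podxl (0.96), Pcsk6 (0.95), Lmo2 (0.94) and Plod1 (0.93), all over 17 mice, with Spearman rho from 0.84 to 0.93. Over the 15 mice other than Control replicates 6 and 9 their r lay between 0.81 and 0.92. Of these, Fgd5 and Lmo2 were lower in GWI colons, each with a log2 fold change of -0.79 (edgeR adjusted p = 0.0414 and 0.0165). Podxl had -0.58, Pcsk6 -0.63 and Plod1 0.0012 (edgeR adjusted p = 0.0819, 0.0637 and 0.996).

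A wider list of 24 pan-endothelial genes was read from the same fit. In edgeR's test 11 were lower and 0 were higher in GWI colons, also 0 higher at an unadjusted p under 0.05. DESeq2 called 12 lower and limma-voom 21, both with 0 higher. Of all 14146 tested genes, limma-voom called 4180 lower, and edgeR 13.5%. The count of pan-endothelial genes in edgeR's test was 7 without GWI replicate 3, 4 or 6. Each of the 24 had a negative log2 fold change, and their median was -0.59. With the smooth muscle score in the model, 22 were negative and 2 positive, with a median of -0.215. Ushbp1 fell by 0.84 on the log2 scale (standard error 0.17, edgeR adjusted p = 0.00246), from a control median of 3.89 CPM (2.56 to 4.52) to a GWI median of 1.88 CPM (1.49 to 2.90). Emcn, which encodes endomucin, a surface sialomucin of capillaries and veins, fell by 0.80 (standard error 0.18, edgeR adjusted p = 0.00468). Its control values were 4.18, 6.84 and 9.52 CPM at the lowest, median and highest, and its GWI values 2.87, 3.66 and 5.38 CPM. Erg, a transcription factor of the ETS family that maintains endothelial identity, fell by 0.74 (standard error 0.16, edgeR adjusted p = 0.00481). All 9 control mice, from 4.67 to 10.1 CPM, lay above all 8 GWI mice, from 2.52 to 4.42 CPM. Each of these 3 genes was called whichever mouse was left out. Clec14a, the most abundant gene of the list in CPM, had 26.4 ± 4.72 CPM (SD, n = 9) in control and 25.9 ± 1.41 CPM (SD, n = 8) in GWI colons, a log2 fold change of -0.028 (edgeR adjusted p = 0.853).

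**Figure D2:**
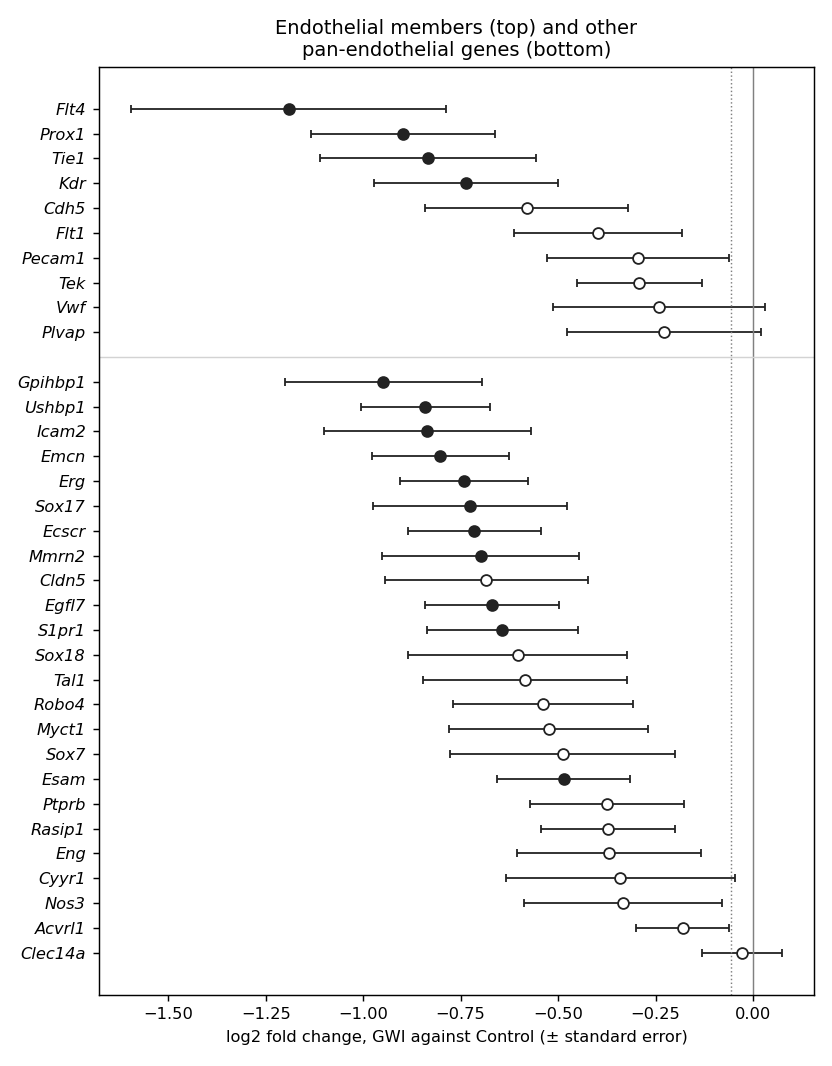
Log2 fold changes of GWI against control colons (horizontal axis, with standard errors) for the 10 members above the grey line and the 24 other pan-endothelial genes below it. Filled circles passed an adjusted p of 0.05, the dotted line is the median of all tested genes at -0.056, and all 34 points lie below 0.

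Of 7 other lymphatic genes, 5 were tested, and each of the 5 had a negative log2 fold change (median -0.69). DESeq2 called 2 of them lower and limma-voom 5. In edgeR's test 1 was lower, beside 13.5% of all tested genes. This was Mmrn1, multimerin 1 of lymphatic endothelium and platelets. Its lowest, median and highest levels were 31.4, 59.2 and 205 CPM in control and 27.9, 39.4 and 68.7 CPM in GWI colons (log2 fold change -0.90, standard error 0.30, edgeR adjusted p = 0.0359). Its call was lost without Control replicate 2, 3 or 6 (edgeR adjusted p = 0.0583, 0.0522 and 0.071) and without GWI replicate 1, 2, 3, 4, 6 or 7 (0.06, 0.0512, 0.071, 0.0676, 0.0606 and 0.0648), and without a filter on low counts (0.0507). Without Control replicate 6 the log2 fold change of Mmrn1 was -0.57. With the smooth muscle score in the model it was -0.14 (edgeR adjusted p = 0.643), and the 5 genes had 2 negative and 3 positive values with a median of 0.12 and 0 called. Foxc2 and Ccl21a were not tested. Ccl21a, a chemokine with near-identical copies, had at most 2 counts in a mouse. Lyve1 (-0.69) and Reln (-1.14) had edgeR adjusted p-values of 0.0961 and 0.0613.

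Of 7 arterial genes, edgeR called 1 lower and 1 higher, beside 13.5% and 13.4% of all tested genes. DESeq2 called 2 and 1, and limma-voom 3 and 2. Gja4, a connexin of arterial endothelium, fell by 0.90 on the log2 scale (standard error 0.23, edgeR adjusted p = 0.00995). With the smooth muscle score its value was -0.51 (edgeR adjusted p = 0.0831). Efnb2, an ephrin of arteries that colon epithelium also makes, rose from a control median of 87.7 CPM (57.6 to 184) to a GWI median of 153 CPM (94.6 to 204), a log2 fold change of 0.64 (standard error 0.21, edgeR adjusted p = 0.0313). The Efnb2 call was lost without Control replicate 3 or 7 (edgeR adjusted p = 0.0562 and 0.0513) and without GWI replicate 2, 4, 5, 6 or 7 (0.052, 0.0528, 0.0581, 0.0594 and 0.0533). It was also lost without both Control replicate 6 and Control replicate 9 (0.0631). Of 4 venous genes, 1 was lower in edgeR's test (limma-voom also called 1 higher), Nr2f2, a nuclear receptor that sets venous identity and is also made in stromal cells (log2 fold change -0.36, standard error 0.096, edgeR adjusted p = 0.013). Exons of Nr2f2 overlap those of B130024G19Rik on the opposite strand. Of 5 adhesion molecules for leukocytes, 3 were tested and 0 were called in either direction by edgeR or DESeq2, while limma-voom called 1 lower. At an unadjusted p under 0.05 in edgeR's test there was 1, Vcam1, at 12.7 ± 3.66 CPM (SD, n = 9) in control and 8.96 ± 3.78 CPM (SD, n = 8) in GWI colons (edgeR adjusted p = 0.101). Without Control replicate 8 or GWI replicate 8 its edgeR adjusted p was 0.0421 and 0.0126.

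The ligands of these receptors were compared too. Of 10 genes for VEGFs, angiopoietins and co-receptors, 9 were tested, and edgeR called 3 lower and 0 higher (median log2 fold change -0.42), while limma-voom called 5 lower and 1 higher. Angpt2, which encodes the angiopoietin that endothelial cells release on activation, fell by 0.93 on the log2 scale (standard error 0.28, edgeR adjusted p = 0.0201), from a control median of 3.68 CPM (1.56 to 6.57) to a GWI median of 1.85 CPM (1.32 to 2.91). Without both Control replicate 6 and Control replicate 9 the edgeR adjusted p of Angpt2 was 0.0537. With all 17 mice limma-voom gave Angpt2 -0.51 (adjusted p = 0.0697). Angpt1, the ligand that mural cells supply to TIE2, fell by 0.71 on that scale (standard error 0.25, edgeR adjusted p = 0.0441). The Angpt1 call was lost without Control replicate 3, 4, 6, 7 or 9 (edgeR adjusted p = 0.0757, 0.0632, 0.0562, 0.0729 and 0.0706) and without GWI replicate 3, 4, 6 or 7 (0.0753, 0.0751, 0.087 and 0.0685). It was also lost without both Control replicate 6 and Control replicate 9 (0.0969) and without a filter on low counts (0.0544). Exons of Angpt1 overlap those of Gm17473 on the opposite strand. Vegfb, a ligand of VEGFR1, fell by 0.42 (standard error 0.13, edgeR adjusted p = 0.0225). The Vegfb call was lost with library size alone as the scaling (edgeR adjusted p = 0.0505) and with the smooth muscle score (-0.21, 0.195). Vegfa, the ligand of VEGFR1 and VEGFR2, had 51.7 ± 29.3 CPM (SD, n = 9) in control and 58.2 ± 10.0 CPM (SD, n = 8) in GWI colons. Its log2 fold change was 0.17 (edgeR adjusted p = 0.599). The lowest, median and highest levels were 33.1, 40.0 and 123 CPM in control and 42.7, 56.1 and 73.1 CPM in GWI colons. All 8 GWI mice lay above the control median, while 1 control mouse lay above and 5 lay below every GWI mouse. Fits with 1 mouse left out were not read for Vegfa.

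Genes of other cell types were read from the same fit. It called 13.5% of all tested genes lower and 13.4% higher, while limma-voom called 4180 of 14146 lower and 3911 higher. Of 10 smooth muscle genes, 7 were lower and 0 higher in edgeR's test (9 lower with DESeq2, 10 with limma-voom), and the median log2 fold change was -0.91. Their summed level was 3690 CPM at the lowest, 11584 at the median and 23923 at the highest in control colons, and 3658, 5142 and 11832 CPM in GWI colons. Myh11, the smooth muscle myosin heavy chain, was the most abundant, and no gene of the list was at 0 counts in any mouse. Control replicate 6 had the highest and Control replicate 9 the lowest sum of the control group, as for the endothelial genes. By smallest p, the called genes were led by Tagln (-1.17), Mylk (-0.91) and Synpo2 (-1.06). Exons of Tagln overlap those of Gm48529 and Pcsk7 on the opposite strand over 1349 of 1988 bases, and exons of Mylk overlap others over 772 of 11263 bases, so reads there may belong to either gene. Exons of Sox17, Egfl7, Ecscr, Reln, Vcam1, Abcc9, Vil1 and Uchl1 also overlap in part with others on the opposite strand. Synpo2 lost its call without Control replicate 6 (edgeR adjusted p = 0.058) or GWI replicate 3, 4, 6 or 7 (0.0559, 0.053, 0.0548 and 0.0532), and without both Control replicate 6 and Control replicate 9 (0.0512). When a score of the smooth muscle list was added to the model as a covariate, 5 of the 10 members had negative and 5 positive log2 fold changes, 0 passed an adjusted p of 0.05 in edgeR's test and 1, Prox1, had an unadjusted p under 0.05. In the same fit 19.7% of all tested genes were called lower. Prox1 then had -0.48 (edgeR adjusted p = 0.0938), Kdr -0.21 (0.381), Tie1 -0.12 (0.646) and Flt4 0.065 (0.862). The called pan-endothelial genes then were Ushbp1, Emcn, Erg, Egfl7, Ecscr and Sox17, 6 of 24, all lower, with log2 fold changes of -0.76, -0.56, -0.53, -0.45, -0.45 and -0.71. In that fit Angpt2 had -1.26 (edgeR adjusted p = 0.00128) and Angpt1 -0.78 (0.0329), while the calls of Mmrn1, Gja4, Vegfb, Kcnj8, Abcc9, Dcn, Dpt, Mrc1 and Scg5 were lost. Of the pericyte and fibroblast genes it called Rgs5 lower (-0.85, edgeR adjusted p = 0.00288) and 3 higher, Pdgfrb (0.60, 0.000742), Col1a1 (1.14, 0.00194) and Col1a2 (0.64, 0.00408). Genes of the smooth muscle list itself cannot be judged in that fit, since the score is made of them.

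**Figure D3:**
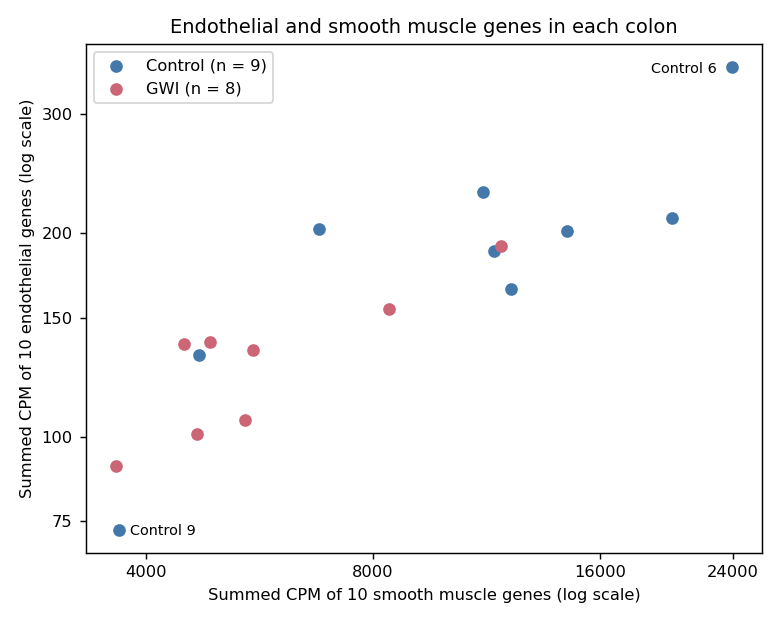
Summed level of the 10 endothelial genes (vertical axis) against the summed level of 10 smooth muscle genes (horizontal axis), both in CPM on log scales, with 1 point per mouse. Control replicate 6, with 352 and 23923 CPM, has the highest sum of both lists, and Control replicate 9, with 72.8 CPM, the lowest endothelial sum.

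Of 9 pericyte and mural cell genes, 8 were tested and 3 were lower, Rgs5 (-1.14, edgeR adjusted p = 0.00308), Kcnj8 (-0.76, 0.0375) and Abcc9 (-0.95, 0.0459), and 0 were higher, while limma-voom called 5 lower. The median log2 fold change was -0.46, with 7 of 8 negative. Kcnj8 lost its call without Control replicate 2, 3, 4 or 6 or GWI replicate 1, 2, 3, 4, 6 or 7, with edgeR adjusted p-values from 0.0534 to 0.0774. Abcc9 lost it without the same mice or Control replicate 1, with values from 0.0586 to 0.104. Without both Control replicate 6 and Control replicate 9 the edgeR adjusted p was 0.0787 for Kcnj8 and 0.0861 for Abcc9. Rgs5, the most abundant, encodes a regulator of G protein signalling in pericytes and vascular smooth muscle. The list summed to 578 to 2054 CPM with a median of 995 in control colons and to 343 to 837 CPM with a median of 457 in GWI colons. Of 8 fibroblast genes, 2 were lower, the matrix proteins Dcn (-0.75) and Dpt (-0.76), and 0 higher (limma-voom called 6 lower, and the median of the list was -0.38), and the sum was 344 to 1030 CPM (median 739) in control and 333 to 888 CPM (median 525) in GWI colons. Its most abundant gene was Col3a1. Higd1b of the pericyte list was at 0 counts in some mice and was not tested.

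Of 8 macrophage genes, edgeR called 1 lower, beside 13.5% of all tested genes, DESeq2 2 and limma-voom 6. All 8 had negative log2 fold changes (median -0.35). The gene called by edgeR was the mannose receptor Mrc1 (-0.55, edgeR adjusted p = 0.0287), which some endothelial cells also carry. Without Control replicate 3 or 6 or GWI replicate 3, 4 or 6 its edgeR adjusted p was 0.0572, 0.055, 0.0582, 0.0555 and 0.0584. The macrophage list, led by C1qa, summed to 34.4 to 86.2 CPM (median 56.1) in control and 32.3 to 51.6 CPM (median 42.6) in GWI colons. Of 10 platelet and red cell genes, 8 were tested and 0 were called in either direction by edgeR, also at an unadjusted p under 0.05, or by DESeq2, while limma-voom called 1 lower. Hbb-bs, a haemoglobin chain and the most abundant, had 19.2 ± 9.88 CPM (SD, n = 9) and 15.2 ± 3.67 CPM (SD, n = 8), and the list summed to 25.9 to 81.7 CPM (median 53.5) and 30.6 to 64.3 CPM (median 45.1). The platelet genes Gp9 and Ppbp were at 0 counts in some mice and were not tested.

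Of 11 colon epithelium genes, 5 were higher and 0 lower in edgeR's test (6 higher with DESeq2, 8 with limma-voom), and 3 of the 11 had negative log2 fold changes (median 0.47). The called genes were led by the adhesion and brush border genes Cdh1 (0.62), Vil1 (0.64) and Cdh17 (0.47, edgeR adjusted p = 0.0268, and 0.0562, 0.0618 and 0.0566 without GWI replicate 2, 6 or 7). Without both Control replicate 6 and Control replicate 9 the edgeR adjusted p of Cdh17 was 0.0584. The sum was 28753 to 46181 CPM (median 35111) in control and 32803 to 51151 CPM (median 41350) in GWI colons. Of 6 adipocyte genes, 1 was higher, the lipid droplet gene Cidec (0.99, edgeR adjusted p = 0.0365), beside 13.4% of all tested genes. The list, led by Cfd, summed to 23.8 to 203 CPM (median 69.6) in control and 67.3 to 567 CPM (median 162) in GWI colons. All 6 had positive log2 fold changes, with a median of 1.09. Without Control replicate 2, 3, 6, 7 or 8 the edgeR adjusted p of Cidec was 0.0584, 0.0625, 0.0613, 0.0548 and 0.053, and without GWI replicate 3, 4, 7 or 8 it was 0.0521, 0.0621, 0.101 and 0.0527. Without both Control replicate 6 and Control replicate 9 it was 0.0713, and without a filter on low counts 0.0506. Of 5 mesothelium genes, 0 were called in either direction by edgeR, DESeq2 or limma-voom, also at an unadjusted p under 0.05. Of 8 enteric neuron genes, 0 were called by edgeR or DESeq2, also at an unadjusted p under 0.05, while limma-voom called 7 lower and 0 higher, and all 8 had negative log2 fold changes (median -0.58). The mesothelium sum, led by Upk1b, was 10.5 to 37.3 CPM (median 15.0) in control and 8.50 to 38.6 CPM (median 12.4) in GWI colons, and the neuron sum, led by Uchl1, was 70.3 to 499 CPM (median 234) and 92.8 to 332 CPM (median 164). Apart from the fit with the smooth muscle score, the part of these other cell types in the endothelial result was not tested.

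Upstream sequence was read for the members that have a window in a RefSeq table of gene starts on GRCm38.p6, 6 of 10. It is shown for Kdr and Prox1, which fell, and for Flt1, a VEGF receptor beside Kdr. Flt1 did not pass edgeR's test, while limma-voom called it lower. In each, the 250 bases before a start lie outside annotated exons, once 3 bases of exon are left out for Kdr. Tek meets this too, with 2 matches to the core named next, and is not shown. Prox1 has 2 starts in the table, and the window of the other, with 5 matches, holds 118 bases of exons of Gm28172 and is not shown. Tie1 and Flt4, which also fell, have windows with 7 and 2 matches. These hold 212 and 250 bases of their own exons and are not shown. Capitals mark GGAA, the core bound by ETS factors such as Erg, or TTCC, the same core on the other strand, each searched on both strands. The stretches are chr5:75978459-75978705 for Kdr, chr1:190170828-190171077 for Prox1 and chr5:147726012-147726261 for Flt1, all from the minus strand and written 5′ to 3′.
Kdr: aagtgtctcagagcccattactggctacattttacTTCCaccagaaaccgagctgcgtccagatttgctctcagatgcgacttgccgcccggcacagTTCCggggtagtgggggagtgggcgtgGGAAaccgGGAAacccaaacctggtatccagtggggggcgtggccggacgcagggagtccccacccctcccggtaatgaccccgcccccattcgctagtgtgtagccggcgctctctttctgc
Prox1: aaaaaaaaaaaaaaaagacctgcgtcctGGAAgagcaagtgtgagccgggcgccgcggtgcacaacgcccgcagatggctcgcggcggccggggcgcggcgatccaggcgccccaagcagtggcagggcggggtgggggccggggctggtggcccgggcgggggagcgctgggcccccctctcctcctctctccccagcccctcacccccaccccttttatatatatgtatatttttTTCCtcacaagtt
Flt1: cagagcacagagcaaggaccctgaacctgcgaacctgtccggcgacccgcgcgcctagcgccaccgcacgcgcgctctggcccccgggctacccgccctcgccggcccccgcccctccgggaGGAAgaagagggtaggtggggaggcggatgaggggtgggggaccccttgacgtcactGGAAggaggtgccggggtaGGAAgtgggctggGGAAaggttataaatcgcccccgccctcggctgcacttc
The core occurred 4 times for Kdr, 2 times in the Prox1 window shown and 4 times for Flt1. Of all 32851 windows of 250 bases, 93.4% held it, with a median of 3 matches. A match is a description of these letters only.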

How the data were processed

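Colon RNA of 9 control and 8 GWI mice was sequenced after poly(A) selection as paired-end reads. Reads were trimmed (Trimmomatic 0.36), aligned to GRCm38 (STAR 2.5.2b) and assigned to genes with featureCounts by the authors, whose deposited values are raw counts per gene without normalization. The annotation release and the strand setting are not given in the sources used here. All 17 columns matched 1 sample each.

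Here filterByExpr removed low genes, the trimmed mean of M-values (TMM) set the scaling, and edgeR 4.0.16 (R 4.3.3) gave the robust quasi-likelihood F-test, with group as the only term and Benjamini-Hochberg adjustment over 14146 genes. Each SE is the absolute log2 fold change over the square root of F. CPM used TMM-scaled library sizes, and log2 CPM a prior count of 2. Exon lengths and positions are from GENCODE M21 (GRCm38). Code was tested on simulated data. No batch is named. The deposited sample codes share stems between some samples of a group. Their meaning is not given in the sources used here, and no fit used them.

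Members and lists were chosen with earlier results of these data known. Named genes were the members, up to 3 called genes with the smallest p in each list, otherwise its most abundant tested gene, and the 5 genes most like the members. Genes named beyond this were chosen after their values were seen. Alternatives were DESeq2 1.42.0 size factors and Wald test, upper-quartile factors, library size alone, no filter, at least 10 counts in every mouse, limma 3.58.1 voom with quality weights, a replicate block, a smooth muscle score, the thresholds of the study's methods on the edgeR fit (the authors used DESeq2), and leaving out each mouse.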

Additional observations from a re-analysis of the deposited data

Results flagged for a closer look

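In 12 of 52 checks of a group's values, the highest mouse lay far from the nearest other mouse by Dixon's test. Chance gives about 1 in 20 for independent, normally distributed values. The checks used CPM without logs and shared the same mice, so the 12 cannot be set against that rate. Control replicate 6 was such a mouse for Prox1 (33.0 CPM), Flt4 (97.7 CPM), the sum of the other lymphatic genes (469 CPM) and the sum of the pericyte genes (2054 CPM). In the GWI group, replicate 8 was high for Prox1 (15.3 CPM) and for the sum of the adhesion molecules (21.9 CPM), and replicate 5 was high for Vwf (26.2 CPM) and for the sum of VEGF and angiopoietin genes (239 CPM). Control replicate 1 was high for the arterial genes (205 CPM), the VEGF and angiopoietin genes (294 CPM) and the mesothelium genes (37.3 CPM), each summed. GWI replicate 7 was high for the adipocyte genes, with a sum of 567 CPM.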

How the results depend on the processing

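All 10 members kept negative log2 fold changes under every alternative but the smooth muscle score, where Pecam1 had 0.24, Cdh5 0.012, Vwf 0.30, Plvap 0.026, Flt4 0.065 and, outside the members, Uchl1 0.58. Hbb-bs had 0.023 with limma-voom and Upk1b between -0.11 (without GWI replicate 8) and 0.25 with 1 mouse left out. The count of members called lower, 4, was 8 with limma-voom, 2 with the replicate block, 0 with the smooth muscle score and 1 by an unadjusted p under 0.05 with an absolute log2 fold change over 1, both from edgeR. It was between 1 and 5 when 1 mouse was left out, with 1 without Control replicate 6 or GWI replicate 3, 4 or 6, and 2 without Control replicate 3 or 4 or GWI replicate 1 or 7. Without both Control replicate 6 and Control replicate 9, an alternative chosen after seeing the data, it was 5. The 11 pan-endothelial genes called lower became 21, 7, 6 and 0 under the same 4 alternatives, 7 to 14 with 1 mouse left out (7 without GWI replicate 3, 4 or 6), and 12 without both control mice. All calls, 3792 (1903 lower, 1889 higher), were 8091 (4180 and 3911) with limma-voom, 2241 (826 lower) with the replicate block and 342 (250 and 92) by the unadjusted rule, and upper-quartile factors gave 2992 lower and 1214 higher. With 1 mouse left out they were 2781 to 4818, with 1309 to 2295 lower and 1472 to 2523 higher. The causes were not tested. No source used here says that replicate numbers pair the mice. Deviations of same-numbered mice had correlations from -0.51 to 0.11 over 8 pairs. Of the 8 GWI mice, 0 correlated best with the control mouse of its own number. These values cannot settle whether same-numbered mice were handled together. With the replicate block the edgeR adjusted p of members called lower was 0.0596 for Prox1 and 0.0681 for Flt4. The block also ended the calls of Mmrn1 (0.0812), Efnb2 (0.0539), Nr2f2 (0.0569), Angpt1 (0.172), Angpt2 (0.0771), Kcnj8 (0.129), Abcc9 (0.162), Synpo2 (0.0811), Cdh17 (0.0839), Mrc1 (0.0927) and Cidec (0.101). Without a filter on low counts the calls of Flt4 (0.0539), Mmrn1 (0.0507), Angpt1 (0.0544), Abcc9 (0.064) and Cidec (0.0506) were lost. The smooth muscle score ended the calls of Kdr, Tie1, Prox1, Flt4, Mmrn1, Gja4, Vegfb, Kcnj8, Abcc9, Dcn, Dpt, Mrc1 and Scg5. Their edgeR adjusted p-values were then 0.0596 to 0.862. In that fit Hbb-bs was called lower, at -0.68 (edgeR adjusted p = 0.041), against -0.34 in the main fit. Counting error limits genes with few counts, such as Foxc2 and Ccl21a, and no source used here names molecular identifiers, so several reads may stem from 1 molecule.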

Other observations

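Some genes of the arterial and venous lists had positive log2 fold changes that did not pass the test. Dll4, a Notch ligand of the arterial list, had 10.8 ± 2.96 CPM (SD, n = 9) in control and 13.5 ± 2.84 CPM (SD, n = 8) in GWI colons (log2 fold change 0.32, edgeR adjusted p = 0.173). Ephb4, the venous receptor of the Efnb2 ephrin, had 77.2 ± 18.9 CPM (SD, n = 9) and 94.5 ± 14.5 CPM (SD, n = 8). Its log2 fold change was 0.29 (edgeR unadjusted p = 0.0464, adjusted p = 0.115), and each of the 8 GWI mice lay above the control median. Exons of Dll4 and Ephb4 overlap those of Gm14207 and Zan on the opposite strand. In control colons Ephb4 stood at 16.6 ± 4.07 CPM per kilobase (SD, n = 9), beside 13.5 ± 4.97 for Plvap and 3.49 ± 1.45 for Cdh5. Which cells made Dll4 and Ephb4 was not tested. Both genes were chosen after their values were seen.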
